A study of Mus musculus with 27 samples.

Results

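The genes described here are 8 members of the claudin family, Cldn1, Cldn2, Cldn3, Cldn4, Cldn6, Cldn7, Cldn9 and Cldn12, taken by symbol from a table of 55401 mouse genes that holds 33 claudin genes. They come from RNA of 4T1, a metastatic mouse mammary carcinoma line, and were selected on their levels in knockout clones against parental cells, where they appeared lost or gained. Levels in clones against parental cells are therefore given as a description, without a test, and tests are kept for leflunomide and for genes outside the 8. In these same values, Cldn3 and Cldn7 were near 0 in all 6 clones and Cldn6 was higher in 4 of the 6. The libraries of a clone all lay above every parental library for 19.9% to 29.3% of 13940 tested genes. Cldn2 was neither lost nor gained, with at most 2 counts in any library. None of this checks the choice, which used these values.

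Polyadenylated RNA was sequenced in 27 libraries, 3 for each of 9 groups. Of these groups 6 were CRISPR-Cas9 knockout clones of 4T1: gs1B8 and gs2_B4 for Drp1 (gene Dnm1l), gs1_B11 and gs2_F6 for Fis1, and gs1_B4 and gs1_C8 for Mff, which all encode proteins of mitochondrial division. They were set against parental 4T1 cells, labelled WT. The remaining groups were 4T1 cells, also labelled WT, kept for 3 days with leflunomide, an inhibitor of pyrimidine synthesis, or with its vehicle DMSO. Each knockout group is 1 clone, so what belongs to the gene and what belongs to the clone cannot be told apart within a group. No unedited clone or control-guide clone was among the 9 groups. A change shared by all 6 clones therefore cannot be told apart from effects of editing or cloning. Agreement between the 2 clones of a genotype does not settle this either. Clones are named by the codes in the table, and the sources used here do not tie these codes to the clone numbers of the public labels. The labels do not say whether the 3 libraries of a group came from separate cultures, and a p-value therefore reflects only how much these libraries vary, which may be technical.

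Claudins are 4-pass membrane proteins that polymerise into the strands of the tight junction and set how readily ions and small solutes pass between epithelial cells. Some members mainly seal the junction and others form ion pores, and the mixture that a cell makes gives its junction its properties. In mammary epithelium Cldn3, Cldn4 and Cldn7 are characteristic members, and a low level of these 3 is the defining feature of the claudin-low class of breast tumours, whereas Cldn6 is best known from embryonic epithelia.

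Each library of the knockout arm held 20715428 to 31295937 counts, and each of the drug arm 18492020 to 24658747. A level is given as CPM, the count divided by the TMM-scaled library size, and an expected count was rounded to a whole number first. DMSO replicate 3 had 23.2% of its counts in ribosomal RNA genes, against 1.60% to 5.73% in the other libraries. The targeted transcripts were lower in their own clones: Dnm1l averaged 68.4 CPM in gs1B8 and 41.1 CPM in gs2_B4 against 217 CPM in parental cells, Fis1 20.7 CPM in gs1_B11 and 17 CPM in gs2_F6 against 46.8 CPM, and Mff 46.7 CPM in gs1_B4 and 42.1 CPM in gs1_C8 against 84.1 CPM. Of 8 epithelial markers, 7 averaged at least 1 CPM in every group, and Krt5 was near 0. The leukocyte markers Cd3e and Adgre1 were at 0, and the summed level of the 6 leukocyte markers, most of it Csf1r, was 0.661 to 4.02 CPM in clone libraries and 3.98 to 4.71 CPM in parental libraries. The 6 mesenchymal markers, nearly all Vim, summed to 14.1 to 16.2 CPM in gs1_C8 and to 141 to 642 CPM in the other clones, against 245 to 253 CPM in parental cells. Their part in the claudin levels was not tested, and in bulk RNA fewer cells of a type and less RNA per cell cannot be told apart.

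Cldn3 and Cldn7, both expressed in parental cells, left almost no RNA in any clone. Cldn3 (ENSMUSG00000070473.4, GRCm38 chr5:134986214-134987472, plus strand) and Cldn4 (chr5:134945119-134946934, minus strand) lie 39.3 kb apart on chromosome 5, and Cldn7 (chr11:69964779-69967885, plus strand) lies on chromosome 11. The bases just before the annotated start of each are shown, because Cldn3 and Cldn7 were both near 0 in the clones from different chromosomes while Cldn4, the neighbour of Cldn3, was not. They are RefSeq promoter sequence of build GRCm38.p6 without exon bases, 5′ to 3′ on the gene's strand, at chr5:134985964-134986213, chr11:69964529-69964778 and chr5:134946935-134947184. Capitals mark the E-box CAGGTG on either strand, a sequence that SNAI and ZEB repressors are known to bind.
Cldn3: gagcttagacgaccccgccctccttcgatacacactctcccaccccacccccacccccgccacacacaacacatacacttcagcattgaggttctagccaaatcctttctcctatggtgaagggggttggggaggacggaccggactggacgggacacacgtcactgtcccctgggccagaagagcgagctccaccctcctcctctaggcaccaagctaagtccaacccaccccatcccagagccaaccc
Cldn7: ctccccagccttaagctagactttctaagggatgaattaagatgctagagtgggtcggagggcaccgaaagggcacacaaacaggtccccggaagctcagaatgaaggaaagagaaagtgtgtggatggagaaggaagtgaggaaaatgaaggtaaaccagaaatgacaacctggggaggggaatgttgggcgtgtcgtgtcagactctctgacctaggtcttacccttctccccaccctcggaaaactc
Cldn4: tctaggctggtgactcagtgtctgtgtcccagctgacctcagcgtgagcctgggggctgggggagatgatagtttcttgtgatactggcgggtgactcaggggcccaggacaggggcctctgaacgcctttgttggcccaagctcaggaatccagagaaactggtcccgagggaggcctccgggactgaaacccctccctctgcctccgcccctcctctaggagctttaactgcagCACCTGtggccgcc
The E-box was found once before Cldn4 and not before Cldn3 or Cldn7, in windows of 250 bases, and 17.2% of 32851 promoter windows of that length held one. The GC box GGGCGG, on either strand, was found once before Cldn3, once before Cldn4 and not before Cldn7, against 32.7% of all windows. No grainyhead site AACCGGTT and no TATA box TATAAA was found in the 3 windows, against 0.116% and 12.4% of all, and no 2 matches overlapped. These are letter matches in the reference and not measured sites.

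Cldn3, a sealing claudin, had 305, 438 and 364 counts in the 3 parental libraries, or 14.4, 17.3 and 16.5 CPM. It had 0 counts in 17 of the 18 clone libraries and 1 count in replicate 2 of gs1_C8. All 18 clone libraries thus lay below every parental library, as they did for 2.56% of 13940 tested genes, a share from which nothing is read because this contrast chose the gene. Against a floor of 3 counts over a group, Cldn3 was at least 408-fold lower in gs1B8, 421-fold in gs2_B4, 393-fold in gs1_B11, 424-fold in gs2_F6 and 431-fold in gs1_B4 than in parental cells. In gs1_C8 the ratio was 1258-fold lower, with a 95% counting interval of 225 to 49724. Such intervals and floors cover counting error only.

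Cldn7, which also supports epithelial adhesion, showed the same pattern at a similar level. It had 272, 320 and 274 counts in parental libraries (12.9, 12.6 and 12.4 CPM), 0 counts in 17 of 18 clone libraries and 1 count in replicate 2 of gs1_B4. It was at least 319-fold lower in gs1B8, 329-fold in gs2_B4, 308-fold in gs1_B11, 332-fold in gs2_F6 and 328-fold in gs1_C8, and 1013-fold lower in gs1_B4 (counting interval 181 to 40041). The libraries of the drug arm, which are not clones, held both transcripts: Cldn3 stood at 15, 13.6 and 13.2 CPM with leflunomide and at 13.6, 14.1 and 13.2 CPM with DMSO, and Cldn7 at 10.6, 9.20 and 7.73 CPM with leflunomide and at 11.5, 9.86 and 8.82 CPM with DMSO.

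**Figure D1:**
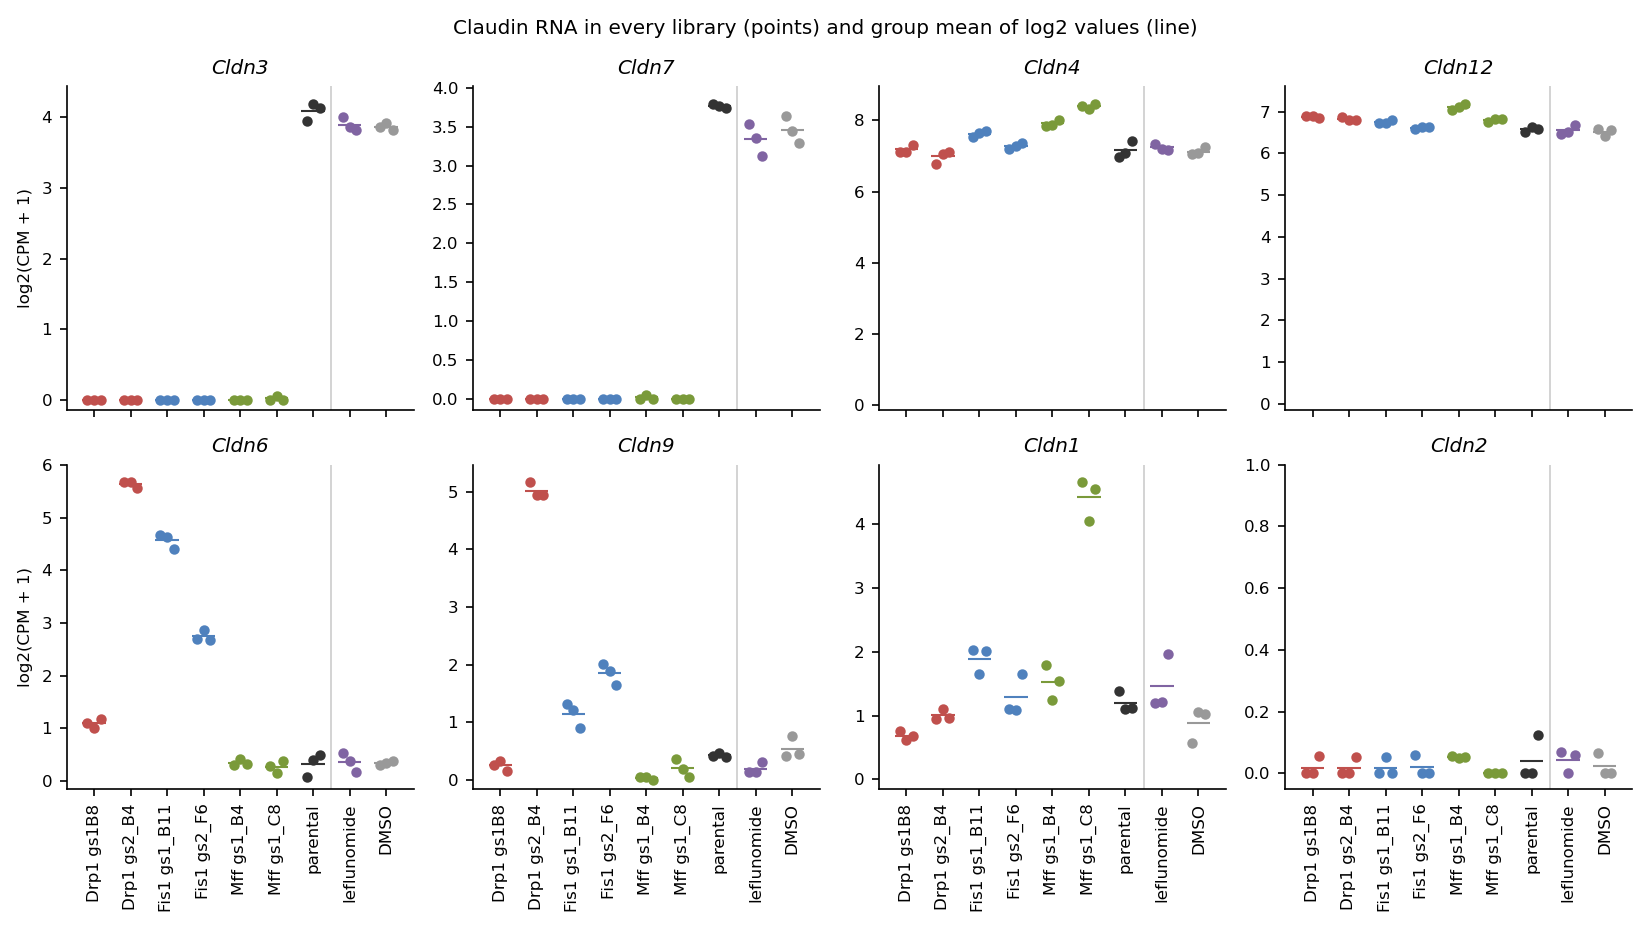
Level of each of the 8 claudins in every library, as log2(CPM + 1) on the vertical axis, over the 6 clones, parental cells, leflunomide and DMSO; points are libraries, lines are means of the log2 values, and the panels differ in scale. Cldn3 and Cldn7 lie at or near 0 in all 18 clone libraries, Cldn6 and Cldn9 peak in gs2_B4, Cldn1 peaks in gs1_C8, and Cldn2 is near 0 throughout.

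No other gene with a parental mean of at least 10 CPM came this close to 0 in all 6 clones. Of 8512 genes with a parental mean of at least 10 CPM, Cldn3 and Cldn7 were the 2 (0.0235%) with 3 or fewer counts over all 18 clone libraries. Ranked by the highest clone mean as a share of the parental mean, Cldn3 stood first at 0.0744% and Cldn7 next at 0.0957%. The next genes were Pgk1-rs7 at 5.83%, whose reads can be confused with those of its near-identical relative Pgk1, and then Sorcs2 at 60.6%. This ranking is a description of the contrast that chose both claudins. The gene most like Cldn3 over the 9 groups was Cldn7, and the reverse, with a root mean square difference of 0.21 between their centred mean log2(CPM + 1) values. The next were Car9, a carbonic anhydrase, at 0.87 from Cldn3 and 0.67 from Cldn7, and Cadps2, a vesicle priming factor, at 1.15 and 0.95. Cadps2 averaged 0 CPM in every clone against 2.10 CPM in parental cells.

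The genes around Cldn3 and Cldn7 did not share the loss. Elp5, an Elongator subunit on the opposite strand whose 3′ end lies 337 bp from that of Cldn7, averaged 49.9 to 60.8 CPM over the clones against 50.8 CPM in parental cells, and Ctdnep1, a phosphatase of the nuclear envelope, averaged 59.1 to 62.9 CPM against 60.0 CPM. Abhd11, 21680 bp from Cldn3, averaged 19.2 to 24.1 CPM in 5 clones and 46.5 CPM in gs1_C8, against 23.5 CPM in parental cells, and was called higher in gs1_C8 (log2 0.97 ± 0.08, SE, adjusted p = 2.7e-09, edgeR quasi-likelihood test). Over the 7 neighbours of Cldn3 and Cldn7 outside the 8 claudins, the log2 fold change in a clone ran from -0.44 to 0.97.

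**Figure D2:**
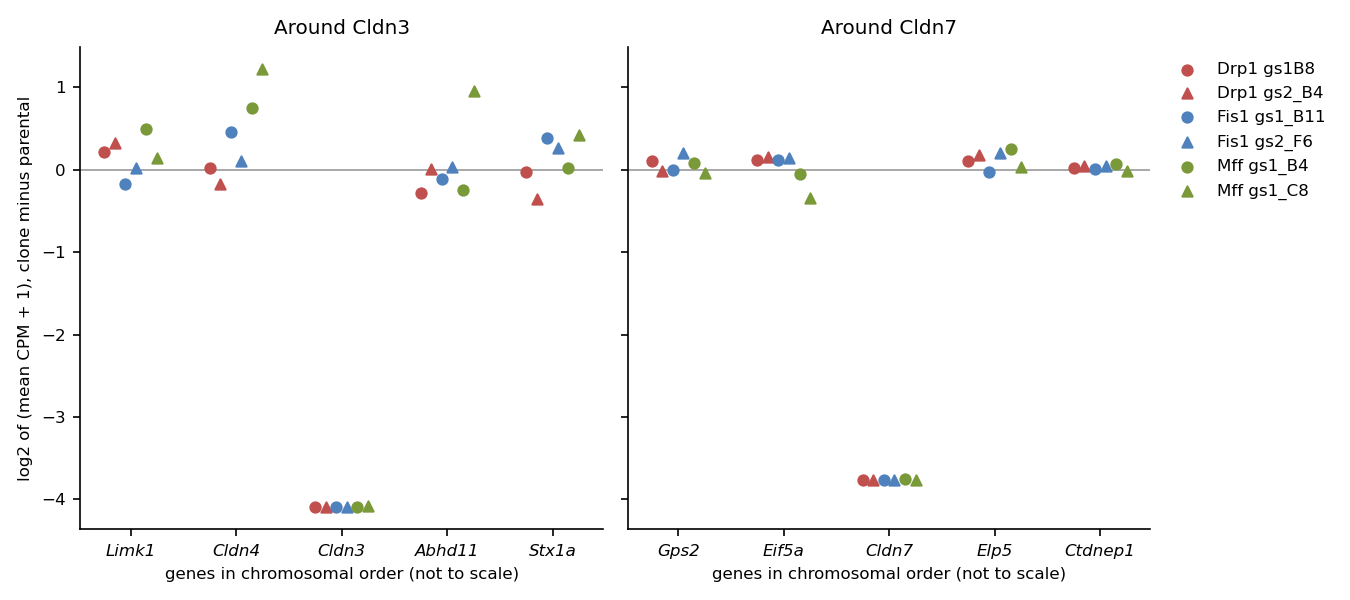
Difference between each clone and parental cells in log2(mean CPM + 1), on the vertical axis, for Cldn3 and Cldn7 and the expressed genes on either side, in chromosomal order and not to scale; each point is 1 clone. Both claudins lie near -4 in all 6 clones, while the flanking genes, Cldn4 included, stay between -0.5 and 1.3.

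Cldn4 and Cldn12 made up most claudin RNA in every group and were not lost. Cldn4, a sealing claudin that is also a receptor for Clostridium perfringens enterotoxin, stood at 335, 319 and 351 CPM in gs1_C8, at 230, 235 and 259 CPM in gs1_B4 and at 185, 198 and 209 CPM in gs1_B11, against 124, 135 and 170 CPM in parental cells. All 9 of these clone libraries lay above the parental range. Over all 13940 genes, the 3 libraries of a clone all lay above every parental library for 21% of genes in gs1B8, 29.3% in gs2_B4, 25% in gs1_B11, 19.9% in gs2_F6, 25.9% in gs1_B4 and 26.8% in gs1_C8, and all lay below for 23.7%, 28.5%, 29.5%, 22.3%, 25.8% and 27.7% in the same order, and nothing is read from claudin counts against these shares, as this contrast chose the genes. The log2 differences were 1.22, 0.73 and 0.47 (SE 0.10 each). In gs1B8 it stood at 138, 138 and 158 CPM, in gs2_B4 at 109, 132 and 138 CPM and in gs2_F6 at 145, 153 and 165 CPM, which overlap the parental range. Cldn12 (chr5:5489537-5514958, minus strand), a claudin linked to calcium uptake in the intestine, varied least. Its highest values were 131, 138 and 144 CPM in gs1_B4 and its lowest clone values 94.2, 97.3 and 98.7 CPM in gs2_F6, against 90.6, 97.5 and 95.1 CPM in parental cells. Its log2 differences were 0.29 in gs1B8, 0.23 in gs2_B4, 0.17 in gs1_B11, 0.02 in gs2_F6, 0.51 in gs1_B4 and 0.21 in gs1_C8 (SE 0.04 each). The genes most like Cldn4 were Tdrd7, B2m and Creb3 (root mean square differences 0.18, 0.18 and 0.19), and those most like Cldn12 were Vopp1, Lman2l and Upp2 (0.06, 0.07 and 0.07).

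Cldn6 and Cldn9, which are convergent neighbours on chromosome 17 (chr17:23679249-23682446, plus strand, and chr17:23682584-23684026, minus strand, 137 bp apart), were high in some clones only. Cldn6 stood at 50.0, 50.0 and 46.5 CPM in gs2_B4, at 24.5, 23.8 and 20.3 CPM in gs1_B11, at 5.51, 6.35 and 5.42 CPM in gs2_F6 and at 1.14, 1.02 and 1.25 CPM in gs1B8. In parental cells it stood at 0.0473, 0.315 and 0.408 CPM, from 1, 8 and 9 counts. These 4 clones did not overlap the parental range, and their ratios to it were 186, 87.6, 22.1 and 4.32. Both Mff clones overlapped it, with 0.237, 0.327 and 0.256 CPM in gs1_B4 and 0.220, 0.108 and 0.308 CPM in gs1_C8.

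Cldn9, a claudin needed for hearing, was high beside Cldn6 in 3 clones, to a different extent in each. It stood at 34.7, 29.7 and 29.8 CPM in gs2_B4, at 1.5, 1.33 and 0.868 CPM in gs1_B11 and at 3.02, 2.72 and 2.14 CPM in gs2_F6, against 0.331, 0.394 and 0.317 CPM in parental cells. The ratios were 89.8, 3.56 and 7.54. In gs1B8, where Cldn6 was above the parental range, Cldn9 was below it at 0.203, 0.265 and 0.121 CPM. These came from 5, 7 and 3 counts, against 7, 10 and 7 in parental cells. Cldn9 was also below the parental range in gs1_C8, at 0.293, 0.144 and 0.0440 CPM from 8, 4 and 1 counts. In gs1_B4 it had 2 counts in all, 14-fold lower (counting interval 3.48 to 122). Per length of exon, the median Cldn6 to Cldn9 ratio was 1.31 in gs2_B4, 15.1 in gs1_B11 and 1.96 in gs2_F6. Whether the counting used strand is not given in the sources used here, so reads running past the end of either gene could not be assigned with certainty.

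Genes beside this pair differed less. Hcfc1r1, 4022 bp from Cldn6, was called higher in 5 clones, at 25.7 to 36.1 CPM, and lower in gs1_C8, at 11.6 CPM, against 15.9 CPM in parental cells, by edgeR's quasi-likelihood test with Benjamini-Hochberg adjustment. Tnfrsf12a, 1781 bp from Cldn6, a receptor of the TNF family, averaged 206 CPM in gs2_B4 and 227 CPM in gs1_B4, where it was called higher, 129 CPM in gs1_C8, where it was called lower, and 170 to 172 CPM in the other 3 clones, against 162 CPM in parental cells. The genes most like Cldn6 were Cldn9, Gm20186 and Mab21l4 (root mean square differences 1.04, 1.11 and 1.31), and those most like Cldn9 were Itgb7, Mmp24 and Tuba8 (0.69, 0.79 and 0.82).

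Cldn1 (chr16:26356642-26371841, minus strand), a sealing claudin needed for the skin barrier, was high in 1 clone. It stood at 24.3, 15.6 and 22.6 CPM in gs1_C8, against 1.61, 1.14 and 1.18 CPM in parental cells, a ratio of 15.9 (log2 3.98 ± 0.24, SE). The other Mff clone, gs1_B4, had 2.45, 1.38 and 1.90 CPM and overlapped the parental range. The Fis1 clone gs1_B11 lay above it at 3.08, 2.14 and 3.02 CPM, and the Drp1 clone gs1B8 lay below it at 0.692, 0.530 and 0.606 CPM. The clones gs2_B4, at 0.930, 1.16 and 0.959 CPM, and gs2_F6, at 1.16, 1.13 and 2.14 CPM, overlapped it. The genes most like Cldn1 were Gbp6, Evpl and Mx2 (0.36 each), and Mx2, an interferon-induced GTPase, averaged 14 CPM in gs1_C8 against 0.284 CPM in parental cells.

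Summed claudin RNA averaged 264 CPM in gs1B8, 321 in gs2_B4, 332 in gs1_B11, 263 in gs2_F6, 384 ± 21.4 in gs1_B4 and 469 ± 18.7 in gs1_C8, against 269 ± 25.8 CPM in parental cells (SD, n = 3). Cldn4 gave 71.3% of the sum in gs1_C8 and 39.4% in gs2_B4, against 53.2% in parental cells. Cldn6 and Cldn9 gave 15.2% and 9.78% in gs2_B4, against 0.0955% and 0.129% in parental cells, where Cldn3 gave 5.97% and Cldn7 4.70%. Per kilobase of exon, parental levels were 78.8 CPM for Cldn4, 22.3 for Cldn12, 12.8 for Cldn3 and 6.49 for Cldn7, and each of the other members was below 0.3 CPM per kilobase.

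**Figure D3:**
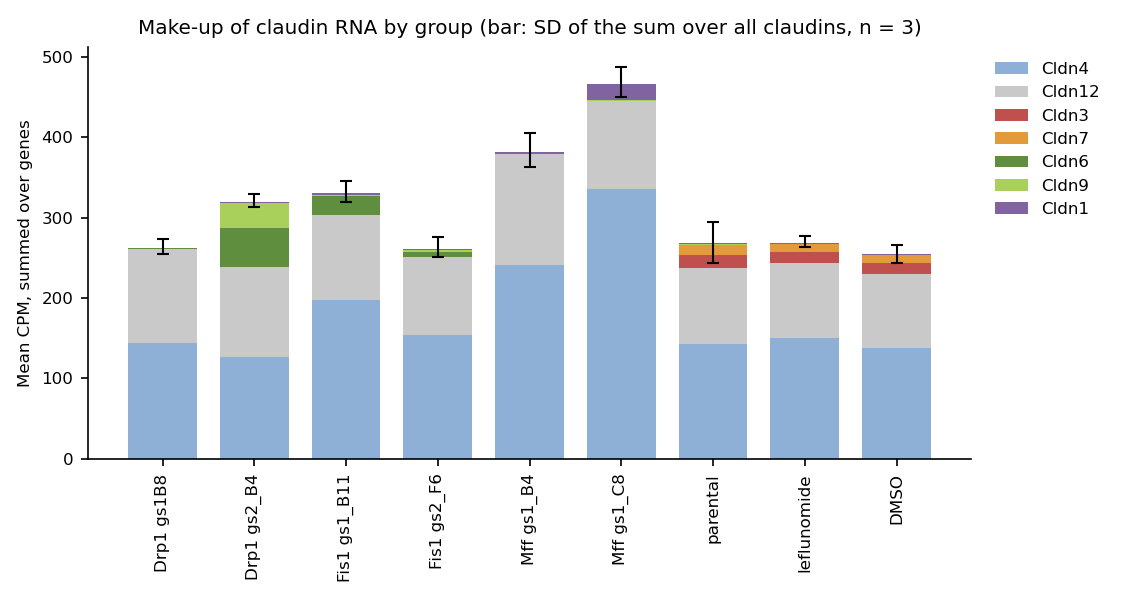
Mean CPM of 7 claudins stacked for each of the 6 clones, parental cells, leflunomide and DMSO, with error bars of 1 SD (n = 3) for the sum over all claudin genes. Cldn3 and Cldn7 are visible in the parental and drug-arm bars only, Cldn6 and Cldn9 widen in gs2_B4, and Cldn4 is largest in gs1_C8.

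Cldn2 (chrX:139800828-139811386, plus strand), a cation pore, had 12 counts over all 27 libraries and 0 in 16 of them, and it passed neither filter on low counts. Of the other 25 claudin genes, 16 had no count in any library, and the 8 that had counts but stayed low did not exceed a group mean of 0.126 CPM. The remaining one, Cldn23, averaged 0.750 CPM in gs1B8, 1.43 in gs2_B4, 1.48 in gs1_B11, 1.54 in gs2_F6, 2.07 in gs1_B4 and 2.81 in gs1_C8, against 0.646 CPM in parental cells. It was called higher in every clone but gs1B8, with log2 fold changes of 1.13 to 2.11, and was not used to choose the 8. It was named, however, because a group mean reached 1 CPM, which happened only in the clones where it was called. These calls are therefore not independent of its naming. Over all tested genes, calls higher than parental made up 12.1% in gs1B8, 24.1% in gs2_B4, 21.4% in gs1_B11, 13.1% in gs2_F6, 20.9% in gs1_B4 and 21.5% in gs1_C8, and calls lower made up 17.4%, 26.3%, 25.9%, 18.2%, 26.8% and 25.2% in the same order.

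With leflunomide no claudin passed the test. The 8 were not selected on this contrast, although earlier results of these libraries were known. Of the 8 claudins 5 passed the filter, and 0 of these 5 were called by edgeR's quasi-likelihood test, against 2.79% of 12603 genes, 1.84% higher and 0.944% lower. At an unadjusted p under 0.05 there was 1, Cldn1, and DESeq2 also called 0. Cldn1 stood at 1.3, 1.32 and 2.91 CPM with leflunomide and at 0.478, 1.07 and 1.03 CPM with DMSO, so all 3 treated libraries lay above every DMSO library, as for 13.6% of genes. Its log2 fold change was 1.12 ± 0.44 (SE), with an adjusted p of 0.20 by edgeR's quasi-likelihood test, and the adjusted p over all alternatives ran from 0.028 to 0.46. The value without Leflu replicate 3 was 0.61. The other 4 gave log2 fold changes of 0.03 ± 0.10 for Cldn3, 0.12 ± 0.08 for Cldn4, -0.14 ± 0.15 for Cldn7 and 0.04 ± 0.08 for Cldn12, with adjusted p of 0.87, 0.40, 0.65 and 0.84. In a simulation of this comparison, 34% of 1.5-fold changes and 60% of 2-fold changes were recovered, and 12.15% of calls were false. The changed genes were drawn at random from all tested genes, so these rates do not describe the 5 claudins. The summed leukocyte markers were 5.65 to 9.37 CPM with leflunomide and 1.87 to 2.54 CPM with DMSO, and the summed epithelial markers 1876 to 2135 CPM and 2475 to 2589 CPM, with no overlap, and their part in any value of this comparison was not tested. Cldn6 and Cldn9 were below the filter, and Cldn9 had 0.1, 0.102 and 0.249 CPM with leflunomide and 0.335, 0.697 and 0.362 CPM with DMSO.

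Claudins work with other membrane, scaffold and polarity proteins of the tight junction, and most of the tested genes for these were not called in both clones of a genotype. Among 25 tested of 32 junction genes, 6 rose and 3 fell in both Drp1 clones, 5 rose and 2 fell in both Fis1 clones, and 4 rose and 2 fell in both Mff clones. Over all genes these shares were 7.94% and 12.1%, 5.94% and 9.02%, and 7.37% and 11.3%. Without parental replicate 3 the higher counts were 3 for Drp1 and 3 for Fis1, and the Fis1 count was also 3 without gs1_B11 replicate 2 or gs2_F6 replicate 3. The lower count was 1 for Fis1 without parental replicate 1, parental replicate 3 or gs1_B11 replicate 2, and for Mff it was 0 without parental replicate 1 or gs1_C8 replicate 3 and 1 without parental replicate 2, gs1_C8 replicate 1 or gs1_C8 replicate 2. The median log2 fold change of the list was 0.10 and 0.03 in gs1B8 and gs2_B4, 0.18 and 0.07 in gs1_B11 and gs2_F6, and 0.15 and 0.11 in gs1_B4 and gs1_C8, beside -0.02 to 0.00 over all genes. F11r, the junctional adhesion molecule JAM-A, averaged 92.6 to 114 CPM over the clones against 78.2 CPM in parental cells and rose in all 6 (log2 0.23 to 0.53). Cgnl1, paracingulin, also rose in all 6 (264 to 340 CPM against 236 CPM), and Pard3, a polarity scaffold, fell in all 6 (45.4 to 59.6 CPM against 65.5 CPM). Over all genes 0.538% rose and 2.10% fell in all 6. Ocln, occludin, rose in both Fis1 clones (55.6 and 50.4 CPM against 36.9 CPM) and in gs1_C8, and fell in gs2_B4. The scaffold Tjp1, ZO-1, averaged 209 to 282 CPM over the clones against 207 CPM, and rose in gs2_B4, gs2_F6 and gs1_C8. Marveld3, a relative of occludin, fell in both Drp1 clones (5.96 and 7.41 CPM) and both Fis1 clones (10.4 and 7.41 CPM), against 12.4 CPM. The Fis1 calls of Marveld3 and Cgnl1, and the Fis1 and Mff calls of Pard3, were lost in some fits that left out a library, among them those without parental replicate 3 for Marveld3 and Cgnl1 and without parental replicate 1 for Pard3. All calls are by edgeR's quasi-likelihood test at an adjusted p below 0.05.

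Among 9 tested genes that bind claudins or govern their turnover, 1 rose and 2 fell in both Drp1 clones, 0 rose and 2 fell in both Fis1 clones, and none was called in both Mff clones. Over all genes the shares were 7.94% higher and 12.1% lower for Drp1, 5.94% and 9.02% for Fis1 and 7.37% and 11.3% for Mff. The Mff higher count was 1 without gs1_C8 replicate 3, with DESeq2, with its size factors or with ribosomal RNA left out. The medians were -0.04 and -0.13 in gs1B8 and gs2_B4, 0.01 and -0.14 in gs1_B11 and gs2_F6, and -0.04 and 0.10 in gs1_B4 and gs1_C8. Lnx1, an E3 ubiquitin ligase, had 147 counts in parental cells (2.16 CPM) and 0 counts in gs1B8, gs1_B11 and gs2_F6, at least 54.2-fold, 52.2-fold and 56.3-fold lower. It had 3 counts in gs2_B4, 10 in gs1_C8 and 123 in gs1_B4. Epcam, which binds Cldn7 and stabilises it, averaged 151 CPM in gs1B8, 231 in gs2_B4, 281 in gs1_B11, 165 in gs2_F6, 172 in gs1_B4 and 187 in gs1_C8, against 180 CPM in parental cells. Cdh1, E-cadherin of the adherens junction, averaged 218 CPM in gs2_B4 and 246 CPM in gs1_B4, where it fell, and 353 to 413 CPM in the other 4 clones, against 372 CPM.

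Of 15 tested epithelial regulators, 1 rose and 2 fell in both Drp1 clones, 1 rose in both Fis1 clones, and 3 rose and 1 fell in both Mff clones. Among these 3, Ehf averaged 0.558 CPM in gs1_B4 and 0.353 CPM in gs1_C8, against 0.0289 CPM in parental cells. Ehf passed the filter on low counts only through clones where it was high. Its calls are thus no independent support, and the 15 tested regulators and their medians include it. In the main fit the Drp1 counts are near the shares of 7.94% and 12.1% over all genes. The Drp1 higher count was 3 with DESeq2, the replicate block, all libraries in 1 fit or ribosomal RNA left out. With no filter it was 2. The Drp1 lower count was 1 with no filter or all libraries in 1 fit. The shares over all genes were 5.94% and 9.02% for Fis1 and 7.37% and 11.3% for Mff. With the replicate block the Fis1 higher count was 2. The Drp1 higher count was 0 without gs1B8 replicate 2, gs1B8 replicate 3 or parental replicate 3 and 2 without gs2_B4 replicate 3, and the Fis1 higher count was 0 without gs2_F6 replicate 3, 2 without gs1_B11 replicate 3 and 3 without parental replicate 1. The medians were 0.06 and 0.09 in gs1B8 and gs2_B4, 0.24 and 0.04 in gs1_B11 and gs2_F6, and -0.03 and 0.33 in gs1_B4 and gs1_C8. Grhl2, which drives claudin and cadherin genes, averaged 54.3 to 65.3 CPM over the clones against 57.7 CPM, and rose in gs1_B11 only. The splicing regulator Esrp2 fell in both Drp1 clones (27.3 and 18 CPM) and both Mff clones (20.6 and 32.4 CPM), against 39.5 CPM. Elf3 rose in both Mff clones (31.6 and 27.2 CPM against 16.7 CPM). Of 5 tested repressors of epithelial genes, Zeb2 (23 and 24.1 CPM against 11.8 CPM) and Twist1 (13.1 and 16.1 CPM against 7.36 CPM) rose in both Drp1 clones, and none was called the same way in both Fis1 or both Mff clones. The Drp1 count was 4 of 5 without gs2_B4 replicate 3 and with the replicate block, and 7.94% of all genes rose in both Drp1 clones. The repressors' medians were 0.95 and 1.02 in gs1B8 and gs2_B4, 0.27 and 0.19 in gs1_B11 and gs2_F6, and 0.74 and -0.17 in gs1_B4 and gs1_C8. In gs1_C8 Zeb2 averaged 4.36 CPM and Twist1 1.84 CPM, and both fell. Snai1 averaged 4.56 to 7.04 CPM over the clones against 5.08 CPM, and rose in gs1B8 (7.04 CPM) and gs2_F6 (6.87 CPM). Zeb1 had 43 counts in gs1_B11 (0.594 CPM) and 30 in gs1_B4 (0.378 CPM), where it rose, and 5 to 15 in the other clones, against 3 counts in parental cells (0.0421 CPM). Snai2 had 73 counts in gs1_B4 (0.902 CPM), where it rose, and 0 to 12 in the other clones, against 3 counts in parental cells (0.0414 CPM). Zeb1 and Snai2 passed the filter on low counts only through the clones where they were high. Their calls there are thus no independent support, and the 5 tested repressors and their medians include both. With leflunomide, Ocln fell (27.8 against 41.1 CPM with DMSO, log2 -0.56, adjusted p = 0.045), and Klf4 (4.77 against 2.60 CPM, log2 0.88, adjusted p = 0.039) and Twist1 (11.7 against 8.40 CPM, log2 0.48, adjusted p = 0.041) rose. Each of these 3 calls was lost in every fit that left out a library except the one without Leflu replicate 3. Over all alternatives, by edgeR or DESeq2, the adjusted p was 5.1e-05 to 0.20 for Ocln, 0.00023 to 0.19 for Klf4 and 0.00041 to 0.18 for Twist1. In the simulation of the leflunomide comparison, 12.15% of calls were false.

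**Figure D4:**
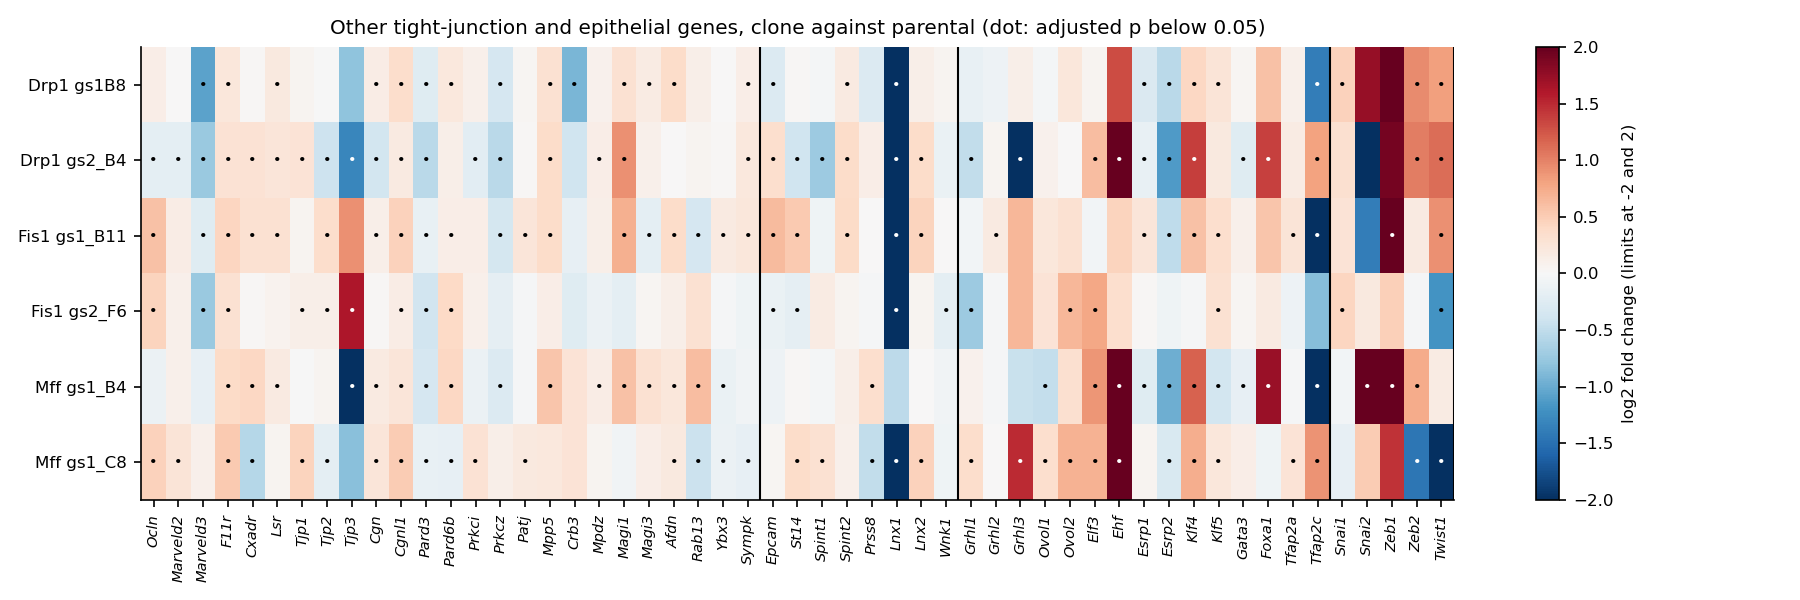
Log2 fold change against parental cells, by colour and limited at -2 and 2, of tested junction, claudin-binding, epithelial and repressor genes (columns, with lines between the lists) in each of the 6 clones (rows); dots mark an adjusted p below 0.05. F11r, Cgnl1 and Pard3 carry a dot of 1 direction in all 6 clones, and Lnx1 is dark in all clones but gs1_B4.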

How the data were processed

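The authors deposited RSEM expected counts per gene for 27 libraries, and per the submitters' processing notes reads were trimmed with Trimmomatic 0.35 and placed on GRCm38 (mm10). No RSEM version and no aligner is named there. Of the values 91.5% were whole numbers, as were 74.9% of those above 0, and all were rounded. Members, gene lists and alternatives were chosen with earlier results of these data known.

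CPM used TMM library sizes over all libraries. Tests used edgeR 4.0.16 (R 4.3.3): filterByExpr, TMM and the two-sided quasi-likelihood F test, with Benjamini-Hochberg adjustment over all tested genes and a threshold of 0.05. The 21 libraries of the knockout arm were 1 fit (13940 genes) and the 6 of the drug arm another (12603 genes). A genotype's call needed both clones with 1 sign. Junction genes named are those called in both clones of a genotype or with leflunomide, at most 6 per list and genotype, plus fixed ones. A list gene and a marker that enter the counts are not reported here by name. Named neighbours are among the nearest expressed genes on each side, and genes called most alike are the 3 with the smallest difference. A gene at 0 was bounded by 3 counts over the group, and 1 to 3 counts carry exact 95% intervals. Alternatives were DESeq2 1.42.0, its size factors, no filter, a run block, all 27 libraries in 1 fit, ribosomal RNA left out, a 2-fold minimum and each library left out. On simulated data, gs1B8's comparison recovered 64% of 1.5-fold and 75% of 2-fold changes with 3.47% of calls false over 13611 genes, and leflunomide's had 12.15% false over 12461 genes. Tables and figures used Python 3.11.15, pandas 2.3.3, numpy 2.4.6 and matplotlib 3.10.9.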

Additional observations from a re-analysis of the deposited data

Results flagged for a closer look

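Cldn9 lay above every parental library in gs2_B4 and below every parental library in gs1B8, both Drp1 clones, a log2 ratio of 7.32 between their mean CPM values, and this difference was not tested because the gene was chosen on these clones. The lower side rests on few counts, 5, 7 and 3 in gs1B8 against 7, 10 and 7 in parental cells. The fitted log2 difference of gs1B8 from parental cells was -0.82 ± 0.45 (SE).

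Among 54 tested junction and epithelial genes, 32 differed between the 2 Drp1 clones, 34 between the 2 Fis1 clones and 39 between the 2 Mff clones, by edgeR's quasi-likelihood test of clone against clone. Over all 13940 genes these shares were 41.0%, 47.5% and 54.7%. Genes called in opposite directions in the 2 clones of a genotype follow as log2 fold changes between the clones. For gs1B8 over gs2_B4 they were Tfap2c at -2.17, Epcam at -0.61 and Cgn at 0.51. For gs1_B11 over gs2_F6 they were St14 at 0.70, Twist1 at 2.11 and Epcam at 0.78. For gs1_B4 over gs1_C8 they were Klf5 at -0.58, Cxadr at 0.98, Ovol1 at -0.81, Zeb2 at 2.19, Rab13 at 1.05, Tfap2c at -4.04, Prss8 at 0.83 and Pard6b at 0.60.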

How the results depend on the processing

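The count of genes called with leflunomide, 351, was 766 with DESeq2, 957 with no filter, 2532 with all libraries in 1 fit and 62 with a 2-fold minimum. It ran from 10 without Leflu replicate 2 to 1583 without Leflu replicate 3, with 13 without DMSO replicate 1, 26 without DMSO replicate 2, 120 without Leflu replicate 1 and 166 without DMSO replicate 3. The cause was not tested. The claudins called with leflunomide were 0 in all fits but the one of all libraries, where 2 were called: Cldn1 (log2 1.14, adjusted p = 0.028, against 0.13 to 0.46 in the other fits) and Cldn9 (log2 -1.54, adjusted p = 0.029, against 0.24 with no filter). The junction and epithelial genes called in both clones were 17, 10 and 10 for Drp1, Fis1 and Mff. With a 2-fold minimum, which by its construction removes small changes, there was 1 for each. For Mff it was Ehf, which passed the filter on low counts only through clones where it was high. Leaving out a library gave 13 to 21, 7 to 13 and 9 to 10.

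Column numbers carry serial runs, not the labels' replicate numbers. Runs were inferred from these numbers. Deviations of libraries of 1 run had a median r of 0.098 over 63 pairs in the knockout arm (-0.115 to 0.353). In the drug arm the median r was 0.207 over 3 pairs (-0.005 to 0.214). These values do not decide whether the runs pair the libraries, and the main fits left the run out. With the run as a replicate block, 351 genes and 0 claudins were called with leflunomide, and 23, 11 and 11 junction and epithelial genes in both clones. The call of Klf4 with leflunomide then had adjusted p = 0.051 and that of Twist1 0.071. Of 585 alternatives for single genes called in both clones, 530 kept the call and 55 lost it, and none reversed. All 232 alternatives for 29 claudin ratios moved by less than the spread between replicates. Most of them left out 1 of 3 libraries, which by construction can hardly move a mean by more than that spread. Nothing is therefore read from this. Ratios with 3 or fewer counts in a group were not among the 29, which leaves out every clone ratio of Cldn3 and Cldn7. Depth limits Cldn2, Cldn6 and Cldn9 in parental and drug-arm cells, where single libraries held few counts. The same holds for Cldn2 in every clone, for Cldn6 in both Mff clones and for Cldn9 in gs1B8 and both Mff clones.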
